A study of Mus musculus with 12 samples.

Results

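The genes described here are the nuclear-encoded subunits of mitochondrial respiratory complexes I to V, measured in mouse cerebral cortex after controlled cortical impact. They were chosen by symbol (Nduf, Sdh, Uqcr, Cox and Atp5 families of protein-coding genes) and by a mean of at least 1 TPM (a transcript level scaled by gene length and library total) over the 12 libraries. Of the 55487 genes listed, 82 qualified, with 37 in complex I, 4 in complex II, 8 in complex III, 16 in complex IV and 17 in complex V. Symbols set the complex, so Ndufa4, now known as a complex IV subunit, stood in complex I, and Cox7a2l and Atp5s were included although they are not canonical subunits.

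The respiratory chain sits in the inner mitochondrial membrane. Complexes I and II pass electrons from NADH and succinate to ubiquinone, complex III passes them to cytochrome c, and complex IV passes them to oxygen. Complexes I, III and IV pump protons, and complex V, the ATP synthase, uses the gradient to make ATP, on which neurons depend heavily. Complex II is encoded entirely in the nucleus, whereas the other complexes combine nuclear-encoded subunits with some encoded by the mitochondrial genome (mt- genes).

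Cortex was taken 2 hr after the impact, a mechanical blow that models traumatic brain injury, from the injured (ipsilateral) side and from the opposite (contralateral) side. Mice called cKO carried the CX3CR1cre-er/+ allele and STING fl/fl, and mice called cre wt carried the CX3CR1cre-er/+ allele without floxed STING. The 4 groups, each of 3 libraries, were cKO ipsilateral, cKO contralateral, cre wt ipsilateral and cre wt contralateral. All animals were injured and all carried a Cre inserted at Cx3cr1, a gene of microglia and monocytes, so no uninjured and no Cre-free tissue served as a control. The series description names the Cre of the floxed animals without its inducible form, and tamoxifen is not mentioned. The labels do not tie the libraries of a group to different mice, and the spread behind each p-value may therefore be technical.

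Total estimated counts ran between 7958931 and 33567194 per library, with cKO ipsilateral library 3 the shallowest. Tmem173, which encodes STING, had 1.05, 2.44 and 1.24 CPM (counts scaled to a common library size, with edgeR's TMM factors) in cKO ipsilateral libraries 1 to 3, against 2.34, 3.69 and 2.72 CPM in cre wt ipsilateral libraries 1 to 3. In contralateral cortex it had 0.998, 1.96 and 0.762 CPM in cKO libraries and 2.49, 2.63 and 3.18 CPM in cre wt libraries, so the genotypes overlapped on the ipsilateral side and did not on the contralateral side. Summed CPM of 8 neuron markers was 7546 to 9054 over the 12 libraries, while 6 muscle markers summed to 10.9 to 14.8 CPM. The neuron list is not particular to cortex, and no list of cortex markers was used.

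Most subunits were expressed at a high level per length. The median TPM over members was 196 for complex I, 152 for complex II, 308 for complex III, 381 for complex IV and 385 for complex V, and together the members made up 2.65% of all TPM. The most abundant were Atp5b, the catalytic beta subunit of ATP synthase, at a mean of 1452 TPM, and the complex IV subunits Cox8a and Cox4i1 at 1448 and 1358 TPM. Ndufa4, counted in complex I by its symbol only, led that set with 667 TPM. Uqcrh, the hinge protein of complex III, led that complex with 574 TPM, and Sdha, the flavoprotein that oxidises succinate, led complex II with 216 TPM.

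Within complex II the levels fell into an order that the 12-library ranges mostly separated. Sdha ranged between 175 and 267.6 TPM and Sdhb, the iron-sulfur subunit, between 149 and 230.9 TPM, and these ranges overlapped. Sdhd, a membrane anchor, ranged between 92.8 and 138.6 TPM and lay below both, and Sdhc, the other anchor, was lowest, between 46.8 and 65.4 TPM.

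Only 7 of the 82 members stayed under 25 TPM, and 6 of them are paralogs known from other tissues or conditions. Cox6a1, the widely expressed form of subunit VIa, averaged 1087 TPM, against 16.4 TPM for its muscle paralog Cox6a2. Cox4i1 averaged 1358 TPM and Cox4i2, a form known from lung, 4.11 TPM. The remaining paralogs at low level were Cox7a1, a muscle form, at 7.23 TPM, Ndufa4l2 at 6.42 TPM, Cox6b2, a testis form, at 5.0 TPM and Cox8b, a muscle form, at 1.24 TPM. The seventh, Atp5s, averaged 20.3 TPM. Nearest below the threshold of 1 TPM were Cox7b2 at 0.60 TPM, Cox8c, listed at 0, and a second entry for Atp5o, listed at 0, which shares exons with the first. Nearest above it were Cox8b, Cox4i2 and Cox6b2. Cox8b, with 0 to 6 counts per library, was the 1 member too low to be tested in the main fit, leaving 81 there.

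The 3 genes for the membrane ring of ATP synthase, Atp5g1, Atp5g2 and Atp5g3, averaged 355, 214 and 535 TPM, and their library ranges of 296 to 416 TPM, 186 to 247 TPM and 423.5 to 630 TPM did not overlap. They encode an identical mature protein, and how many reads their transcripts shared was not measured. Exons of 26 members overlap those of a gene on the other strand, and 5 overlap another entry on the same strand.

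**Figure D1:**
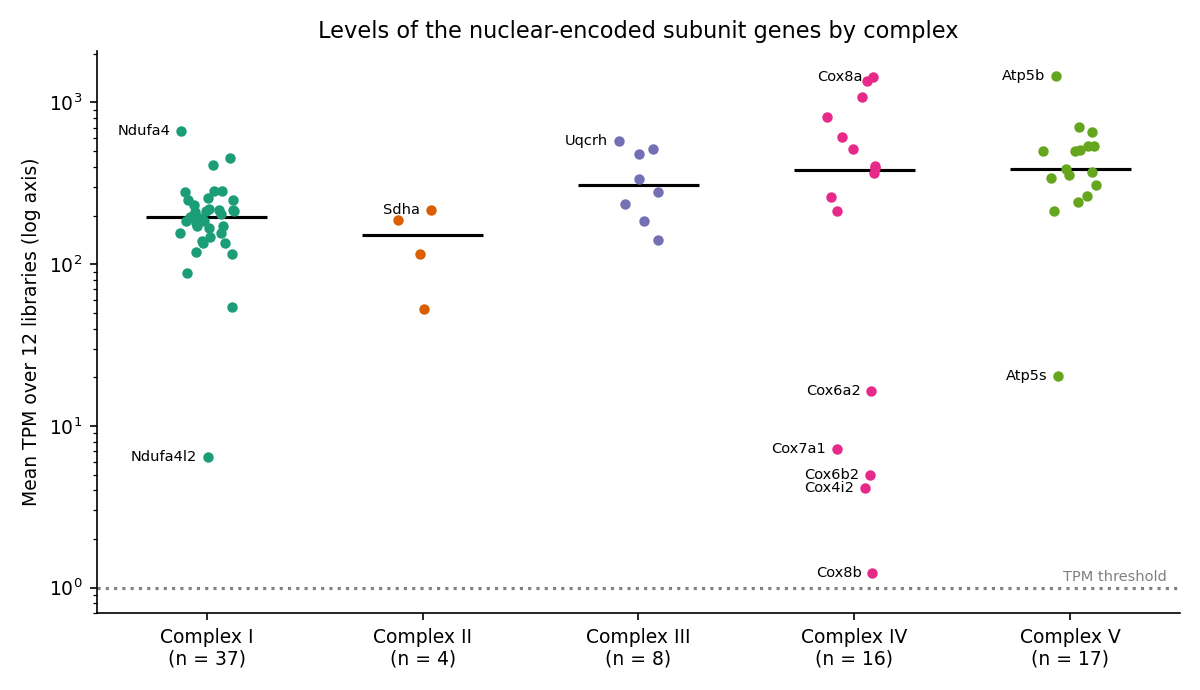
Mean TPM over the 12 libraries (log axis) of each of the 82 members, by complex, with the median as a bar and the TPM threshold dotted. The leading gene of each complex and the 7 members under 25 TPM are named.

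Cox6a1 and Sdhd, which passed the threshold between the sides of the brain described further on, have an upstream stretch outside every annotated exon, shown here for that reason with motif matches in capitals. The stretches, written 5′ to 3′, come from RefSeq promoter windows (GRCm38.p6, 250 bases before to 50 bases after the start site), which matched 67 of the 82 members. The motifs are those of 3 regulators known to act on respiratory genes: NRF1 (GCGC and TGCGC with any base between), GABPA of the ETS family (CCGGAAG) and YY1 (AAGATGGCG), searched on both strands. No motif contains another. The stretch of Cox6a1 (chr5:115348982-115349129, minus strand) holds 2 NRF1 matches, and that of Sdhd (chr9:50603850-50603909, minus strand) holds 1 GABPA match.
Cox6a1: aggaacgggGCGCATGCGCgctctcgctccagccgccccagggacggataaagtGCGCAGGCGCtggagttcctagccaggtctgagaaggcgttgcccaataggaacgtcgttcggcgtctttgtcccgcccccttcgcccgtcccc
Sdhd: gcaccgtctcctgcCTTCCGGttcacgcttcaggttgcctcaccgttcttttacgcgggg
Over the whole windows, 17 of the 67 members (25.4%) held an NRF1 match, against 7.17% of 17492 protein-coding genes with a window. The GABPA motif was found for 16 members (23.9%, against 12.9%) and the YY1 motif for 7 (10.4%, against 2.14%), and 34 members (50.7%, against 19.97%) held at least 1 of the 3. These are matches of letters and say nothing of binding.

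The first question was whether subunit transcripts differ between the injured and the opposite side 2 hr after the impact. Within either genotype none of the 81 members passed the threshold in edgeR's quasi-likelihood test (adjusted p under 0.05 over all 16836 genes tested). In cKO cortex 0 members were higher and 0 lower, where 2.56% of all genes were called higher and 0.178% lower. In cre wt cortex it was also 0 and 0, where 2.73% of all genes were called higher and 0.184% lower. At an unadjusted p under 0.05 stood 7 members in cKO cortex (14.3% of all genes) and 7 in cre wt cortex (14.4% of all genes). DESeq2 called 0 members in cKO cortex, where it called 3.3% of all genes higher and 0.624% lower. In cre wt cortex it called 1, Uqcrc2, lower, where it called 0.909% of all genes lower and 3.64% higher. With limma on log2 TPM 0 members were called in both. It called 1.16% of all genes higher and 0.0204% lower in cKO cortex, and 0.828% higher and 0.115% lower in cre wt cortex.

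For most members the interval kept the side difference within 0.5 log2, a bound resting on the spread between these libraries. The 95% interval of the log2 difference lay within 0.5 of 0 for 72 members in cKO cortex (58.5% of all genes) and for 75 in cre wt cortex (59.4% of all genes). The median log2 difference over the 81 members was 0.08 in cKO cortex and −0.04 in cre wt cortex, against −0.01 over all genes in each. Single libraries moved both medians. With 1 library left out, the cKO median lay between 0.01 (without cKO ipsilateral library 3) and 0.14 (without cKO contralateral library 3), and the cre wt median between −0.13 (without cre wt contralateral library 3) and 0.02 (without cre wt contralateral library 1). The cre wt median was also 0.00 without cre wt ipsilateral library 1 and 0.00 without cre wt contralateral library 2. The CPM of all 3 ipsilateral libraries lay below all 3 contralateral ones for 11 members in cKO cortex (11.1% of all genes) and for 4 in cre wt cortex (8.7% of all genes), with Uqcrc2, Sdhd and Atp5a1 in both counts. They lay above for 4 members in cKO cortex (10.8%) and for 0 in cre wt cortex (10.5%).

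**Figure D2:**
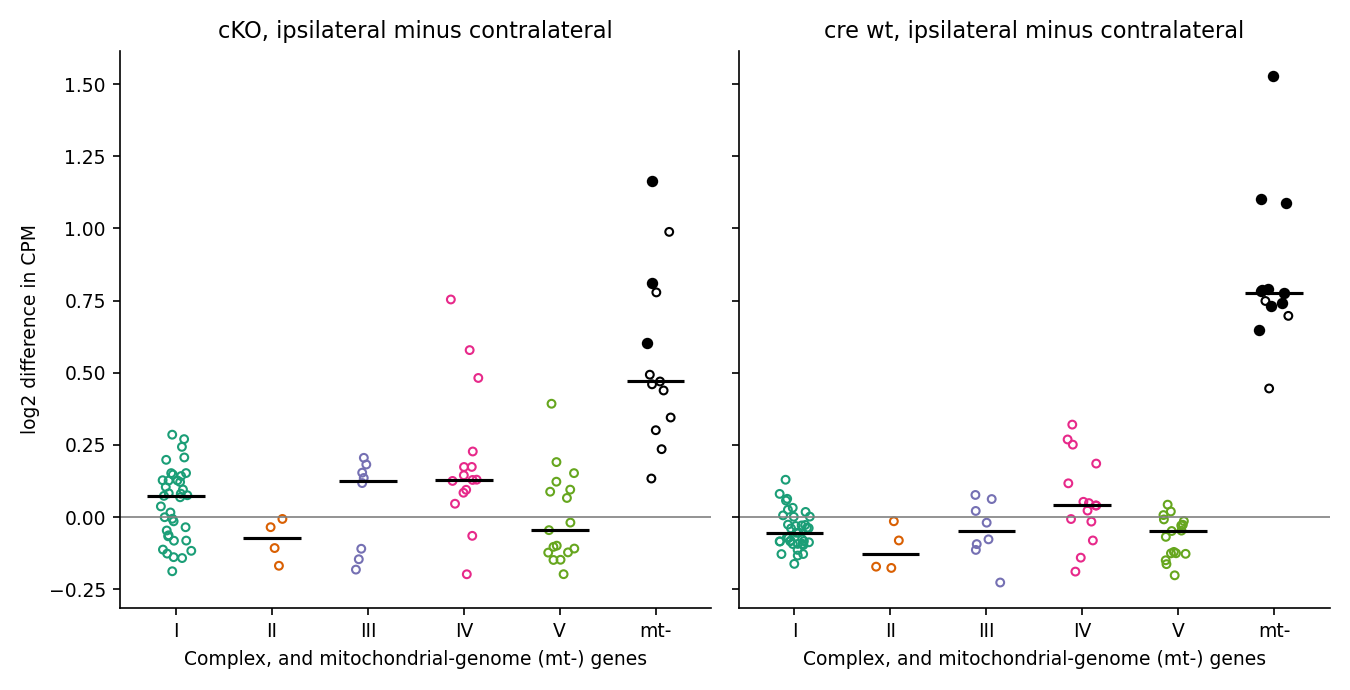
log2 difference in CPM, ipsilateral minus contralateral, of each tested member by complex and of the 13 mt- genes, in cKO cortex (left) and cre wt cortex (right). Filled points passed an adjusted p of 0.05, and bars are medians. Every filled point is an mt- gene.

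Averaged over both genotypes, 4 subunits passed the threshold. Uqcrc2, Sdhd and Atp5a1 fell on the ipsilateral side (3 members, where 2.03% of all genes were called lower), and Cox6a1 rose (1 member, where 5.99% were called higher). At an unadjusted p under 0.05 stood 18 of 81 members (22.2%), against 22.9% of all genes. DESeq2 called the same 4 members, where it called 3.43% of all genes lower and 7.11% higher. With limma on log2 TPM 0 members were called, where 0.821% of all genes were called lower and 1.92% higher. The 95% interval lay within 0.5 of 0 for 78 members (69.7% of all genes). Because this average uses the same libraries as the comparisons within each genotype, it adds depth and no independent evidence.

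Uqcrc2 encodes a core protein of complex III (ENSMUSG00000030884, chr7:120635176-120659524, plus strand). It had 181, 173 and 171 CPM in cKO ipsilateral libraries, against 199, 192 and 191 CPM in cKO contralateral libraries. In cre wt mice it had 170, 167 and 179 CPM in ipsilateral libraries and 201, 207 and 196 CPM in contralateral libraries. All 6 ipsilateral libraries lay below all 6 contralateral ones. The log2 difference was −0.19 ± 0.04 (SE; adjusted p = 0.0114), and it was called with each of the 12 libraries left out in turn (adjusted p between 0.00618 and 0.0421). Its exons overlap those of Pdzd9 on the other strand.

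Sdhd, a membrane anchor of complex II (ENSMUSG00000000171, chr9:50596357-50603812, minus strand), was the second gene with no overlap between sides. It had 72.8, 72.4 and 71.3 CPM in cKO ipsilateral libraries, against 80.9, 79.7 and 83.0 CPM in cKO contralateral libraries. In cre wt cortex it had 73.8, 73.3 and 73.4 CPM in ipsilateral libraries and 87.2, 86.9 and 74.4 CPM in contralateral libraries. The last of these, cre wt contralateral library 3, lay close to the ipsilateral level. Groups of 6 that did not overlap were found for 2 members lower (1.63% of all genes) and 0 higher (3.59%). The log2 difference was −0.17 ± 0.05 (adjusted p = 0.0445), and the call was lost in 11 of the 12 fits that left out a library and held without cre wt contralateral library 3 (adjusted p = 0.00317).

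Atp5a1 encodes the alpha subunit, which forms the catalytic head of ATP synthase with the beta subunit (ENSMUSG00000025428). It had 907, 860 and 845 CPM in cKO ipsilateral libraries, against 998, 919 and 978 CPM in cKO contralateral libraries. In cre wt mice it had 816, 842 and 870 CPM in ipsilateral libraries and 975, 980 and 875 CPM in contralateral libraries. Within each genotype the sides did not overlap. The log2 difference was −0.16 ± 0.04 (adjusted p = 0.0434), and the call was lost in 9 of the 12 fits without 1 library. Its exons overlap those of Haus1 on the other strand.

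Cox6a1, the ubiquitous form of complex IV subunit VIa (ENSMUSG00000041697, chr5:115345642-115348981, minus strand), went the other way. It had 241, 256 and 257 CPM in cKO ipsilateral libraries, against 210, 213 and 245 CPM in cKO contralateral libraries. In cre wt cortex it had 244, 310 and 295 CPM in ipsilateral libraries and 254, 227 and 199 CPM in contralateral libraries. The sides overlapped in both genotypes. The log2 difference was 0.25 ± 0.07 (adjusted p = 0.0459), the call was lost in 9 of the 12 fits without 1 library, and the difference was 0.09 ± 0.04 (adjusted p = 0.141) once trends with length and GC content were removed.

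With the replicate number as a block in edgeR, Uqcrc2 alone stayed past the threshold (adjusted p = 0.0219), while Sdhd, Atp5a1 and Cox6a1 had adjusted p of 0.056, 0.062 and 0.0669. That block ties equal numbers of both genotypes, which cannot be the same mouse. With blocks set within each genotype, Uqcrc2 was again called (edgeR, adjusted p = 0.0272).

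**Figure D3:**
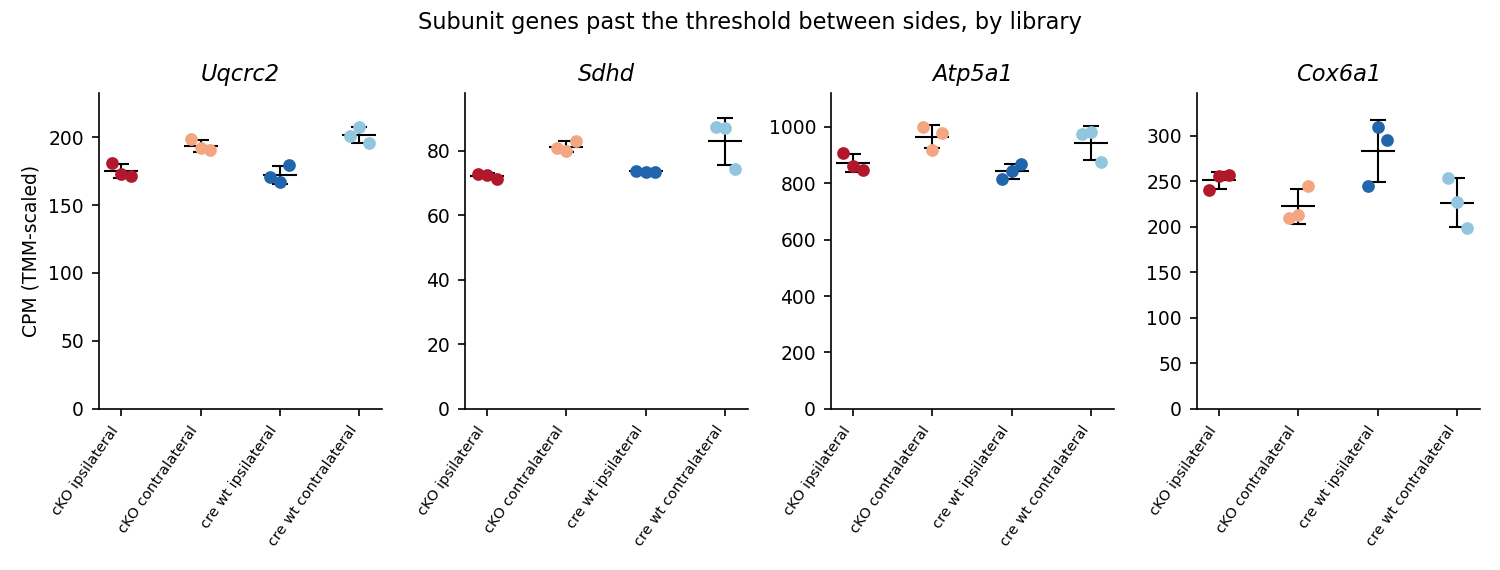
TMM-scaled CPM in each library (points), with the group mean and SD in black (n = 3), for the 4 members past the threshold between sides. Uqcrc2 and Sdhd show no overlap between the 6 ipsilateral and the 6 contralateral libraries.

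By complex, the average side difference was negative for all 4 complex II genes and positive for 14 of the 15 complex IV genes tested. In complex II, Sdhb had 110, 103 and 115 CPM in cKO ipsilateral libraries, against 115, 114 and 124 CPM in cKO contralateral libraries, and 101, 111 and 107 CPM in cre wt ipsilateral libraries, against 124, 131 and 105 CPM in cre wt contralateral libraries. The sides overlapped in both genotypes, and the log2 difference of −0.14 ± 0.06 did not pass (adjusted p = 0.159). Sdha and Sdhc had log2 differences of −0.06 ± 0.04 and −0.01 ± 0.05. The complex II median was −0.10, with 1 of 4 genes called lower.

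Complex IV had the highest median log2 difference of the 5, at 0.09, against −0.00 for complex I, 0.04 for complex III, −0.04 for complex V and −0.01 over all genes. Its highest value belonged to the muscle form Cox7a1 (0.47 ± 0.24), which had under 1.5 CPM in every library. Cox8a, the most abundant, had 277, 334 and 316 CPM in cKO ipsilateral libraries, against 258, 281 and 308 CPM in cKO contralateral libraries, and 310, 357 and 367 CPM in cre wt ipsilateral libraries, against 326, 287 and 244 CPM in cre wt contralateral libraries. Its log2 difference of 0.20 ± 0.08 did not pass (adjusted p = 0.126), and Cox5a was the 1 gene below 0 (−0.04 ± 0.06).

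Complex I held no called gene. Among its nuclear-encoded core subunits, which carry the flavin and the iron-sulfur clusters, Ndufv1, the NADH-binding subunit, had an average difference of −0.16 ± 0.06 and Ndufs3 one of −0.02 ± 0.07. Between them lay Ndufs7 (−0.14 ± 0.08), Ndufs1 (−0.11 ± 0.04), Ndufs8 (−0.04 ± 0.07) and Ndufv2 (−0.03 ± 0.05), so that each of these named subunits had a value below 0 that did not pass the threshold. Accessory subunits spread to both sides of 0. The highest was Ndufa3 (0.21 ± 0.09, adjusted p = 0.188), a small membrane-arm subunit. Ndufa4, placed in this set by its symbol only, was the most abundant and had −0.01 ± 0.07.

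In complex III the large core proteins had negative values and most small subunits positive ones. Uqcrc1, the partner of Uqcrc2, had a log2 difference of −0.15 ± 0.06 (adjusted p = 0.179), whereas Uqcr11, a small subunit, had 0.12 ± 0.09 (adjusted p = 0.455) and the abundant Uqcrh 0.07 ± 0.08 (adjusted p = 0.65). Of the 8 genes, Uqcrc2 alone passed the threshold.

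In complex V, 4 of the 5 subunits of the catalytic head had negative values: Atp5a1, Atp5c1 (gamma, −0.15 ± 0.06), Atp5b (beta, −0.12 ± 0.05) and Atp5d (delta, −0.04 ± 0.06). The fifth, Atp5e (epsilon), had 0.09 ± 0.09, and Atp5a1 alone passed. The ring genes Atp5g1, Atp5g2 and Atp5g3 had −0.08 ± 0.06, −0.04 ± 0.06 and −0.13 ± 0.05. Atp5k, a small membrane subunit, had the highest average value, 0.13 ± 0.12, with 49.2, 45.0 and 76.9 CPM in cKO ipsilateral libraries, against 41.7, 37.9 and 48.3 CPM in cKO contralateral libraries. Cre wt cortex had 37.4, 41.7 and 43.7 CPM in ipsilateral libraries and 45.9, 50.1 and 37.9 CPM in contralateral libraries, so that cKO ipsilateral library 3 stood far above the rest.

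These differences ran with coding length across the members. Over the 81 tested members, Spearman's rho between coding length and the log2 difference was −0.71 for the average of both genotypes, −0.67 in cKO cortex and −0.49 in cre wt cortex. The 40 members with a coding length below the median of 411 bases had a median average difference of 0.07, against −0.06 for the other 41. All points share the same 12 libraries, so rho is a description. Trends over all genes with GC content and with the length of the longest transcript, not with coding length, were then removed from the libraries. After this, rho with coding length was −0.56, no member was called higher and 12 were called lower. The share of all genes called lower was 5.22% (2.03% without this correction) and the share called higher 7.71%. The 12 were Sdhb, Sdhd, Uqcrc2, Ndufv1, Ndufa9, Ndufa11, Ndufs7, Atp5a1, Atp5b, Atp5c1, Atp5g3 and Atp5o.

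**Figure D4:**
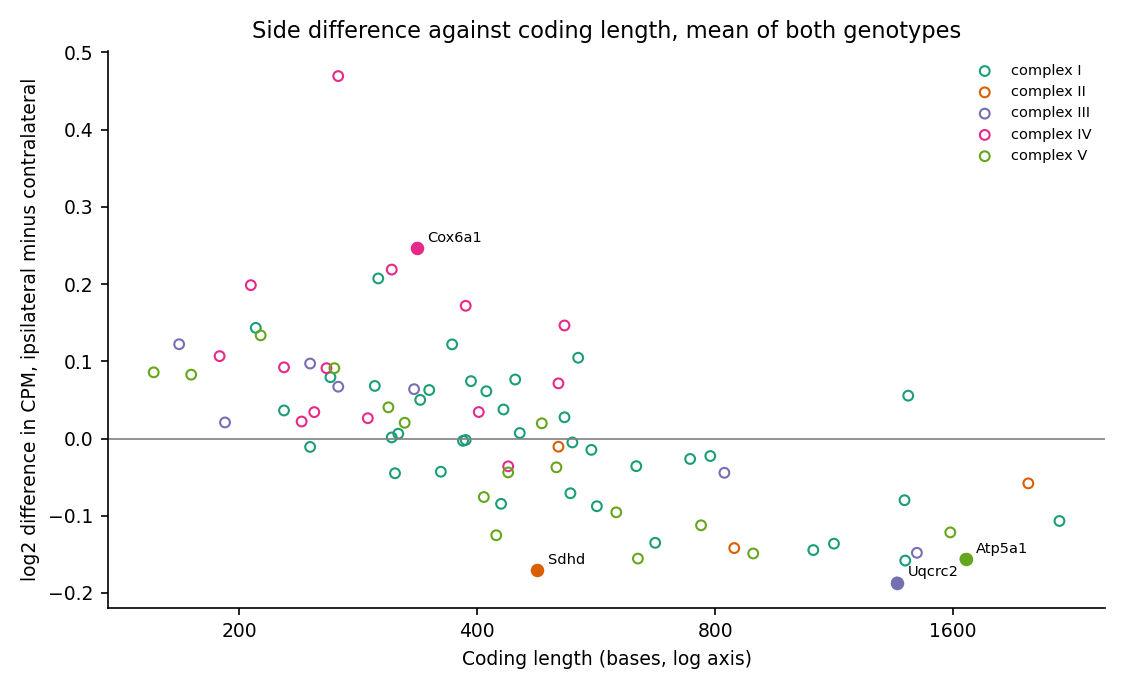
Average log2 difference in CPM, ipsilateral minus contralateral, of the 81 tested members against coding length in bases (log axis), coloured by complex, with the 4 called members filled and named. Values fall with length, from mostly positive at short coding lengths to mostly negative at long ones.

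The members shifted together from library to library, by amounts as large as the side differences. The median deviation of the 81 members from their own 12-library mean, in log2 CPM, was 0.02, −0.05 and 0.11 in cKO ipsilateral libraries 1 to 3, and −0.03, −0.10 and 0.09 in cKO contralateral libraries. It was −0.15, −0.03 and 0.07 in cre wt ipsilateral libraries and 0.11, 0.10 and −0.20 in cre wt contralateral libraries. Cre wt contralateral library 3 held the lowest value of 41 members and cKO ipsilateral library 3 the highest value of 28. The pooled SD of these medians within groups was 0.12, and 0.06 with length and GC trends removed. Among the complexes the SD was 0.15 for complex III, 0.15 for complex IV, 0.14 for complex I, 0.09 for complex V and 0.06 for complex II. Ribosomal protein genes moved with them in cre wt contralateral library 3, where 76 of 92 had their lowest value (median deviation −0.30). Without that library, 12 members were called lower over both genotypes and 0 higher, and 4 members, Uqcrc2, Sdhb, Sdhd and Atp5o, were called lower in cre wt cortex. Calls of all genes were more frequent too without it, with 4.22% lower and 7.88% higher over both genotypes and 1.01% lower in cre wt cortex.

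Cell type markers differed between the sides as well. Summed neuron markers gave 7546 to 7715 CPM in cKO ipsilateral libraries, against 8379 to 8878 CPM in cKO contralateral libraries, and 7754 to 8924 CPM in cre wt ipsilateral libraries, against 8581 to 9054 CPM in cre wt contralateral libraries. Over both genotypes, 7 of the 8 neuron markers had values below 0 (median −0.14) and 2 were called lower, Snap25 and Syt1, each at −0.17 ± 0.05. Of the 6 astrocyte markers, 3 were called higher (Slc1a3 0.24 ± 0.05, Aldoc 0.20 ± 0.05, Gja1 0.25 ± 0.07). Of the 5 oligodendrocyte markers 1, Mbp, was higher (0.49 ± 0.11), and of the 5 endothelial markers 2 were higher (Flt1 0.44 ± 0.07, Pecam1 0.34 ± 0.09). Of the 5 microglia markers 1, Tmem119, was lower (−0.70 ± 0.09). All 5 neutrophil markers that were tested were higher, with sums of the list of 18.8 to 40.3 CPM in cKO ipsilateral libraries, against 4.02 to 5.29 CPM in cKO contralateral libraries, and 10.7 to 27.0 CPM in cre wt ipsilateral libraries, against 4.38 to 4.53 CPM in cre wt contralateral libraries. Of the mural, striatal and muscle markers edgeR called 0, with 2 of the 6 muscle markers tested. Still, all 5 striatal markers had values above 0 in cre wt cortex (median 0.47), against 3 in cKO cortex (median 0.01). In cKO against cre wt ipsilateral cortex 0 of the 5 were above 0 (median −0.28). All 5 red cell markers were called higher over both genotypes. Their sums were 602 to 933 CPM in cKO ipsilateral libraries, against 4.76 to 81.6 CPM in cKO contralateral libraries. Those sums were, in cre wt cortex, 597 to 2104 CPM in ipsilateral libraries and 2.10 to 242 CPM in contralateral libraries. In tissue RNA, fewer cells of a type and less RNA per cell cannot be told apart, and the part of cell composition in the subunit differences was not tested.

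Of 100 other genes of mitochondrial energy metabolism tested, 5 fell and 0 rose over both genotypes, where 2.03% of all genes were called lower and 5.99% higher, and 28 had values above 0. Of 13 electron transport and ATP synthesis genes outside the symbol rule, 1 fell over both genotypes, the mitochondrial creatine kinase Ckmt1, with a mean of 190 CPM in ipsilateral and 224 CPM in contralateral libraries (log2 difference −0.23 ± 0.05). Of 46 assembly factors tested, 1 fell, the complex I factor Ndufaf4 (−0.24 ± 0.06). Of 17 genes of the citric acid cycle and pyruvate oxidation, 3 fell: Idh3a, a subunit of isocitrate dehydrogenase (−0.18 ± 0.04), Dld, the shared dehydrogenase component of several complexes (−0.20 ± 0.05), and Sucla2 of succinyl-CoA synthetase (−0.16 ± 0.05). The median of these 17 was −0.11, with 1 above 0. Idh3a was the 1 gene of these lists called within a genotype, in cKO cortex (−0.22 ± 0.05, adjusted p = 0.0423). Of 24 regulators of mitochondrial biogenesis and transcription, among them Ppargc1a, Nrf1, Gabpa and Tfam, edgeR called 0 in any comparison.

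The mitochondrial genome behaved differently from the nuclear-encoded subunits. All 13 of its protein-coding genes were higher on the ipsilateral side over both genotypes, with a median log2 difference of 0.63 against 0.02 for the 81 nuclear members, whose median lay between −0.04 and 0.05 with 1 library left out. Within genotypes, 3 of 13 rose in cKO cortex (median 0.47) and 10 of 13 in cre wt cortex (median 0.78), and all 13 values were above 0 in each. The 3 in cKO cortex were mt-Co2, mt-Cytb and mt-Nd4l, and in cre wt cortex all but mt-Atp8, mt-Nd4l and mt-Nd6 passed. Over both genotypes 7 of the 13 kept the call in all 22 alternatives tried. The call of mt-Nd3 (0.46) was lost in 11 of them and that of mt-Atp8 (0.76) in 7, with values down to 0.16 and 0.26 in limma on log2 TPM (adjusted p = 0.458 and 0.446), and mt-Nd1, mt-Co3, mt-Nd5 and mt-Nd6 lost it in limma alone.

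The largest difference was that of mt-Co2, a core subunit of complex IV. It had 883, 820 and 1121 CPM in cKO ipsilateral libraries, against 528, 541 and 538 CPM in cKO contralateral libraries, and 814, 1256 and 1250 CPM in cre wt ipsilateral libraries, against 392, 399 and 360 CPM in cre wt contralateral libraries. All ipsilateral values lay above all contralateral ones, and the log2 difference was 1.17 ± 0.10 (adjusted p = 1.33e-06). The smallest was that of mt-Nd6, the complex I gene on the light strand, at 0.37 ± 0.08 (adjusted p = 0.0105). The most abundant, mt-Co1, which carries the oxygen-reducing site of complex IV, had 19973, 30313 and 20660 CPM in cKO ipsilateral libraries, against 16273, 18160 and 15975 CPM in cKO contralateral libraries. Cre wt cortex had, for mt-Co1, 26617, 32825 and 32503 CPM in ipsilateral libraries, against 17030, 17423 and 20996 CPM in contralateral libraries. Its sides did not overlap within either genotype. The libraries were poly(A)-selected, and whether this selection captured mt- and nuclear transcripts alike was not tested.

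Summed mt- TPM was 3.50, 5.61 and 3.39 times summed member TPM in cKO ipsilateral libraries, against 3.05, 3.56 and 2.79 times in cKO contralateral libraries. It was 5.67, 5.81 and 5.37 times in cre wt ipsilateral libraries, against 2.76, 2.85 and 4.58 times in cre wt contralateral libraries. The sides overlapped in cKO cortex and did not in cre wt cortex, where contralateral library 3 again stood nearest the ipsilateral ones. By complex, the ratio of mt- to nuclear TPM in cre wt cortex averaged 6.88 ± 0.42 on the ipsilateral side, against 4.29 ± 1.27 on the contralateral side, for complex I, and 6.39 ± 0.52 against 3.72 ± 0.94 for complex III (SD, n = 3 each). For complex IV it was 5.18 ± 0.17 ipsilaterally against 3.29 ± 0.84 contralaterally, and for complex V 4.92 ± 0.37 against 2.77 ± 1.11. The mt- part of complex V is mt-Atp6 and mt-Atp8 alone, with ipsilateral means of 886 and 250 CPM over both genotypes, against 27149 CPM for mt-Co1. Yet summed mt- TPM in cre wt ipsilateral cortex averaged 33795 for complex V and 36826 for complex IV. TPM is scaled by gene length, and the part of that scaling in these ratios was not tested. In cKO cortex the averages were 5.27 ± 1.32 against 4.01 ± 0.47 for complex I, 4.90 ± 1.23 against 3.28 ± 0.55 for complex III, 4.33 ± 0.75 against 3.13 ± 0.36 for complex IV and 2.96 ± 1.86 against 2.47 ± 0.35 for complex V, with the ipsilateral side first. The last pair rested on cKO ipsilateral library 2: the complex V ratio was 2.36, 5.05 and 1.48 in cKO ipsilateral libraries 1 to 3, against 2.49, 2.81 and 2.12 in cKO contralateral libraries, and without library 2 the ipsilateral mean was 1.92, below the contralateral one.

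TPM sums to a fixed total, so more of any abundant transcript lowers every other TPM. The members summed to 24303, 22985 and 23897 TPM in cre wt ipsilateral libraries, against 28149, 30098 and 24437 TPM in cre wt contralateral libraries, without overlap. With the mt- genes left out of the total, the sums were 28515, 26846 and 27794 TPM in cre wt ipsilateral libraries and 30741, 33190 and 27843 TPM in cre wt contralateral libraries, and the sides overlapped. In cKO cortex the sums over all genes were 26759, 22715 and 31102 TPM ipsilaterally and 27206, 27305 and 28951 TPM contralaterally, which overlapped. Bc1, a small noncoding RNA of neurons, took 1.05% of TPM in cKO ipsilateral library 3 and 8.30 to 16.7% in the other 11 libraries. With mt- genes and Bc1 left out of the total, the members summed to 35086, 31745 and 35674 TPM in cKO ipsilateral libraries and 35320, 34078 and 37059 TPM in cKO contralateral libraries, which overlapped as well. In cre wt cortex these sums were 31593, 32891 and 34410 TPM ipsilaterally and 37600, 37592 and 31007 TPM contralaterally. The cre wt sides overlapped only through contralateral library 3, as they did with the mt- genes alone left out. With the mt- genes alone left out, cKO sums were 29812, 26381 and 35248 TPM ipsilaterally and 29905, 30495 and 31770 TPM contralaterally.

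**Figure D5:**
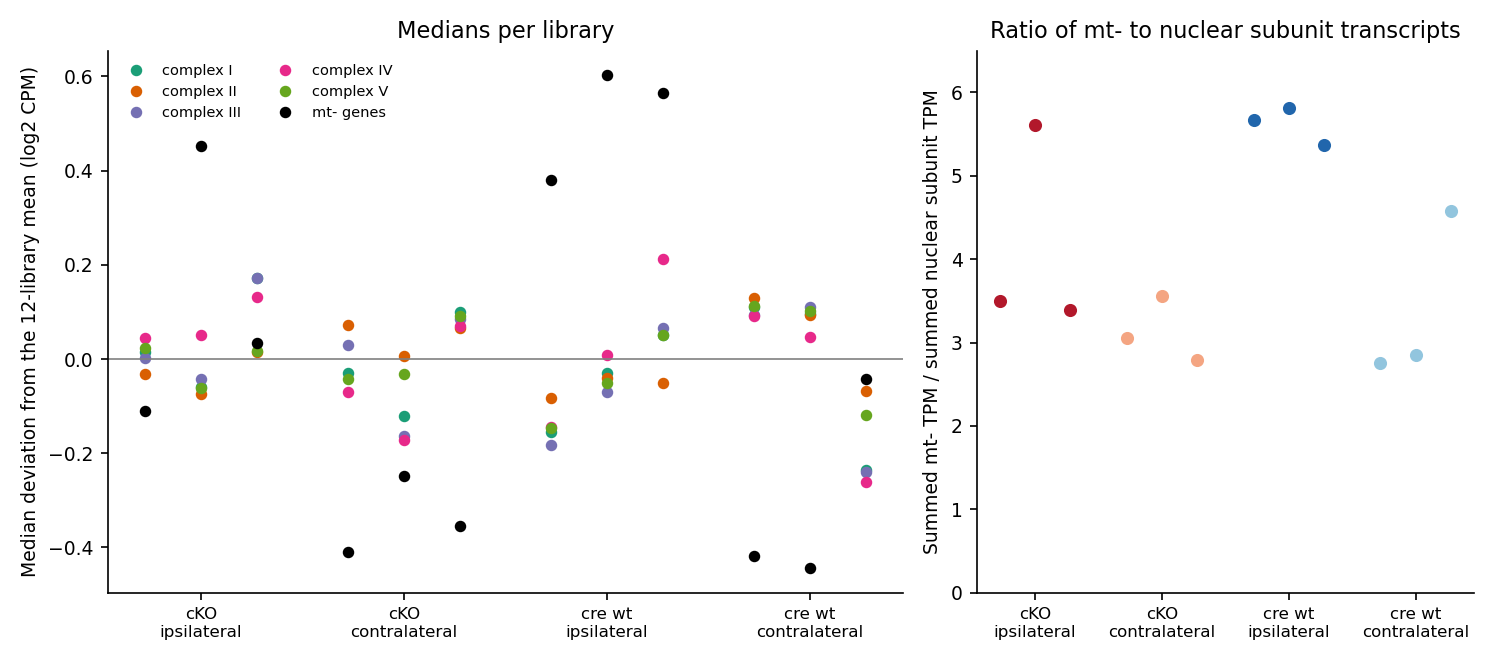
Left, median deviation in log2 CPM from the 12-library mean for the members of each complex and for the 13 mt- genes, in each library (libraries 1 to 3 of a group from left to right). Right, summed mt- TPM divided by summed member TPM in each library. The ratio is 5.37 to 5.81 in cre wt ipsilateral libraries and 2.76 to 4.58 in cre wt contralateral libraries.

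The second question was whether subunit transcripts differ between cKO and cre wt cortex. Loss of STING in Cx3cr1-expressing cells was not measured, and Tmem173 overlapped between the genotypes on the ipsilateral side. All values are of whole tissue, so a change confined to Cx3cr1-expressing cells could go unseen. On the ipsilateral side 0 of 81 members (82 in limma) were higher and 0 lower in cKO than in cre wt cortex by edgeR, DESeq2 and limma. Of all genes, edgeR called 0% in either direction, DESeq2 0.0475% higher and 0.0119% lower, and limma 0.00679% higher and 0% lower. At an unadjusted p under 0.05 stood 3 members (5.86% of all genes): Atp5s (−0.32 ± 0.10), Atp5k (0.45 ± 0.17) and Cox4i2 (0.65 ± 0.30), with adjusted p of 0.754 or more. Atp5s had 10.99, 9.85 and 8.96 CPM in cKO ipsilateral libraries, against 13.3, 12.2 and 12.1 CPM in cre wt ipsilateral libraries, without overlap. The cKO libraries lay below all cre wt libraries for 2 members, Atp5s and Sdhd (5.99% of all genes), and above for 2, Atp5k and Sdha (5.6% of all genes). The 95% interval lay within 0.5 of 0 on the log2 scale for 73 members (62.6% of all genes). The median was 0.06, with 67 of 81 members above 0, and it was 0.02 without cKO ipsilateral library 3 and −0.00 without cre wt ipsilateral library 1.

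On the contralateral side 0 members were called in either direction by edgeR, DESeq2 and limma. Of all genes, edgeR and limma called 0% and DESeq2 0.0178% higher and 0% lower. In edgeR 0 members stood at an unadjusted p under 0.05 (2.7% of all genes). The median was −0.03, between −0.10 (without cre wt contralateral library 3) and 0.03 (without cKO contralateral library 2) with 1 library left out. The cKO libraries lay below all cre wt libraries for 1 member (3.6% of all genes) and above for 0 (3.4% of all genes). There 76 members had a 95% interval within 0.5 of 0 (66% of all genes). The difference between the side effects, cKO minus cre wt, was called for 0 members by any of the 3 tools. Of all genes, edgeR and DESeq2 called 0% and limma 0.00679% higher and 0% lower. In edgeR 1 member, Atp5k (0.52 ± 0.23), had an unadjusted p under 0.05 (2.26% of all genes). Its interval reached from 0.02 to 1.02, and 57 members had an interval within 0.5 of 0 (48.3% of all genes). For the other 24 members, Atp5k among them, a difference of more than 0.5 was not excluded.

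For the mt- genes, the median log2 difference between cKO and cre wt ipsilateral cortex was −0.35, with 11 of 13 below 0, 8 at an unadjusted p under 0.05 and 0 called by edgeR. For the difference of side effects the median was −0.28, with 3 of 13 at an unadjusted p under 0.05 and 0 called, so the larger count of rises in cre wt than in cKO cortex did not pass as a difference between the genotypes.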

How the data were processed

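RNA from 12 cortex libraries (poly(A)-selected, stranded kit) was sequenced. Per the submitters' processing notes, the authors used Trim Galore 0.6.4, STAR 2.7.1a, RSEM 1.2.28 and DESeq2 1.36.0 with build mm10. The annotation and strand setting are not given in the sources used here. The authors deposited estimated counts (expected counts, whole numbers in the file) and TPM per gene. RSEM divides reads between near-identical copies, so paralogs, processed pseudogenes and nuclear copies of mt- genes make single values uncertain. Gene names came from GENCODE M21 for 55141 of 55487 IDs (99.4%).

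Counts were tested with edgeR 4.0.16 (R 4.3.3; TMM scaling, quasi-likelihood test, filterByExpr with a minimum count of 10 and total of 15, which kept 16836 genes), 1 fit over the 4 groups, with Benjamini-Hochberg adjustment over all genes tested. SE belongs to the log2 difference. Alternatives were DESeq2 1.42.0, limma 3.58.1 on log2(TPM + 1) for genes with a mean of at least 1 TPM, other scalings, no filter, removal of length and GC trends, a replicate block and leaving out libraries. Length and GC content in that removal were those of each gene's longest transcript. The limma fit covered 14730 genes and all 82 members, and the fit without a filter also covered all 82. The code was tested on simulated data. Intervals are 95%. Library totals of 7958931 to 33567194 set the precision of low counts. Members and lists were chosen with earlier results of these data known. The rule for named genes took called members, the most abundant member and the extremes of the average side difference in each complex, all Sdh genes, complex I core subunits, catalytic-head subunits, isoform sets, mt- genes and called genes of the other lists. Uqcrc1, Atp5s and the members named only under an alternative were added after their values were seen. A result that this rule would name is not reported here.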

Additional observations from a re-analysis of the deposited data

How the results depend on the processing

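Uqcrc2 kept its call in 22 of 23 alternatives (limma, adjusted p = 0.0868), Atp5a1 in 10, Sdhd in 8 and Cox6a1 in 7, and no direction of a called value reversed. In brackets is the share of all genes called the same way. Over both genotypes, members called lower numbered 1 without a filter (1.41%), 0 with limma (0.821%), 12 with length and GC trends removed (5.22%), 12 without both cKO ipsilateral library 3 and cre wt contralateral library 3 (3.85%), and 1 to 12 with 1 library left out (0.763 to 4.22%). Members called higher numbered 0 with library totals (5.19%), limma (1.92%), length and GC trends removed (7.71%) or both libraries left out (7.81%), 4 without a filter (5.14%) and 0 to 1 with 1 library left out (4.27 to 7.88%). In cre wt cortex the count lower was 1 with DESeq2 size factors (0.208%), library totals (0.434%), mt- genes removed (0.214%) or the DESeq2 test (0.909%), 2 with length and GC trends removed (0.95%), 5 without both libraries (1.23%) and 0 to 4 with 1 left out (0.0117 to 1.01%), and the count higher was 2 without a filter (2.89%) and 0 to 1 with 1 library left out (1.45 to 4.01%). In cKO cortex it was 1 higher without a filter (2.91%) and 3 lower with length and GC trends removed (0.641%). Between genotypes ipsilaterally it was 1 higher without a filter (0.404%). limma on TPM gave member medians of −0.24 in cre wt cortex, −0.046 in cKO cortex, −0.14 over both and 0.18 between genotypes ipsilaterally, where it moved the median of all genes to −0.18, −0.04, −0.11 and 0.16. Apart from the library left out or the correction itself, the cause was not tested.

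Nothing in the labels says that a replicate number pairs libraries. Deviations of same-numbered libraries correlated over all genes at 0.071, 0.092 and 0.057 in cKO cortex and at −0.002, 0.094 and 0.046 in cre wt cortex. Over the 9866 genes averaging 10 CPM or more they correlated at 0.248, 0.311 and 0.235 in cKO cortex and at −0.301, 0.463 and −0.001 in cre wt cortex. In cKO cortex each library matched its own number best, a hint of pairing from the data and not from the design, which was not seen for all numbers in cre wt cortex. With the replicate block, 0 members were higher (6.14%) and 1 lower (1.91%) over both genotypes, also with the block within genotype (6.63% and 2.19%), and 0 were called in cKO cortex (2.7% higher, 0.214% lower). With the block and length and GC trends removed, 0 were higher (8.37%) and 12 lower (5.79%) over both genotypes, 1 lower in cre wt cortex (1.06%) and 3 lower in cKO cortex (0.832%). Low genes such as Cox7a1 had wide errors.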
